A study of Mus musculus with 14 samples.

Results

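The 8 genes described here, Rgs1, Rgs2, Rgs3, Rgs10, Rgs14, Rgs16, Rgs18 and Rgs19, are regulators of G protein signalling found in lymphocytes. They were taken by gene name from the 22255 genes of the expression tables, and all 8 had a row. The study sequenced RNA from Foxp3+ regulatory T cells (Tregs), lymphocytes that hold immune reactions in check, and compared tissues and, within tumors, a deletion of Cd36, a receptor for lipid uptake. There were 4 libraries from spleen, 4 from lymph node (LN), 3 from wild-type tumors and 3 from knockout tumors. The tumors were Yumm1.7 melanomas, grown from a mouse melanoma line.

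Spleen, LN and WT tumor Tregs came from mice of the strain FoxP3-YFPCre+/+, labelled WT (Foxp3-YFP+). KO tumor Tregs came from CD36floxed FoxP3-YFPCre+/- mice, labelled CD36 KO (Foxp3-YFP+). All mice were 8 weeks old, and every group carried the Foxp3-YFPCre allele, in which Foxp3 drives Cre. The strain labels differ in Cre copy number (+/+ against +/-) as well as in the floxed Cd36 allele, and no KO spleen or LN was included, so a KO tumor library differs from spleen and LN libraries in genotype and tissue together. The labels do not say whether libraries of a group came from separate animals, so the p-values below speak only to the spread among the libraries sequenced, which may be technical.

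RGS proteins bind the alpha subunit of an activated heterotrimeric G protein and speed its hydrolysis of GTP, which ends the signal from a G protein-coupled receptor. In T cells such receptors include those for chemokines, prostaglandins, adenosine and sphingosine 1-phosphate, and RGS proteins are known for limiting how strongly and how long the cells respond to them. Rgs1, Rgs2, Rgs3, Rgs16 and Rgs18 belong to the R4 family, which are mostly small proteins with little beyond the RGS domain. Rgs10 and Rgs14 belong to the R12 family, and Rgs19, also called GAIP, to the RZ family.

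In the GENCODE annotation of GRCm38, 4 of the 8 genes lay on chromosome 1. Rgs2 (chr1:143999338-144004161, minus strand) and Rgs1 (chr1:144242296-144249242, minus strand) were 238 kb apart, Rgs18 (chr1:144752683-144775435, minus strand) followed 503 kb further on, and Rgs16 was at chr1:153740349-153745468 on the plus strand. Rgs19 was at chr2:181688419-181693977 (minus strand), Rgs3 at chr4:62559847-62704001 (plus strand), Rgs10 at chr7:128373621-128418758 (minus strand) and Rgs14 at chr13:55369732-55384687 (plus strand). Only Rgs16 shared exon bases with another gene, the antisense Gm28513, and libraries of this kind do not mark the strand, so reads of the pair cannot be told apart.

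The promoters of Rgs2, Rgs10 and Rgs16 are shown because each gene was called in at least 1 comparison of tumor with lymphoid Tregs and had a single promoter in the RefSeq table (GRCm38.p6). Rgs1, Rgs14 and Rgs18 had none there. Each sequence holds the 250 bases before the start site, 5' to 3' on the gene's own strand, and the capitals mark the core of a cyclic AMP response element (TGACG) and GC boxes (GGGCGG), searched on both strands. Adjacent capitals in Rgs16 are GC boxes that overlap.
Rgs2, chr1:144004150-144004399, minus strand: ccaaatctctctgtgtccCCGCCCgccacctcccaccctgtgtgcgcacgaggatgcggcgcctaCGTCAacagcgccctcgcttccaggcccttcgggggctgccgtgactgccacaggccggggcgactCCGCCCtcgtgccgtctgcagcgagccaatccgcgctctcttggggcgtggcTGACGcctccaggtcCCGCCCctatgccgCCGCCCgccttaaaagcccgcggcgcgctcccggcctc
Rgs10, chr7:128418173-128418422, minus strand: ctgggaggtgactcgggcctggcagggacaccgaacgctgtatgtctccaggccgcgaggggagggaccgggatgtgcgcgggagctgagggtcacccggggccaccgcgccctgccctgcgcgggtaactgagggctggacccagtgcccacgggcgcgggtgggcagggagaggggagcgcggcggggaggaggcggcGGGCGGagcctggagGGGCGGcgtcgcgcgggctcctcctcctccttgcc
Rgs16, chr1:153740103-153740352, plus strand: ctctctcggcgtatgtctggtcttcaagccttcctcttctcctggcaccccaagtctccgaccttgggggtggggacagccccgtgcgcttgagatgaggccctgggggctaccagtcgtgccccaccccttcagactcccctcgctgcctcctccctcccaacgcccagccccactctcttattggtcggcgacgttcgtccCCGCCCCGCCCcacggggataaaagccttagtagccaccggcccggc

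These 3 windows were rich in G and C, at 72.4% for Rgs2, 76.4% for Rgs10 and 66.4% for Rgs16, against a median of 52.4% over 32851 promoters of the same length. They held 30, 27 and 17 CpG dinucleotides in that order, against a median of 6. The TGACG core occurred only in the promoter of Rgs2 among the 8 promoters of 5 of these genes, at 185 and 67 bases before the start, and 17.8% of all promoters held it. The full cyclic AMP response element TGACGTCA and the AP-1 motif TGANTCA were in none of the 8, and in 1.55% and 6.75% of all promoters. GC boxes were in 6 of the 8, against 32.7% of all promoters. The 8 are not independent, as the Rgs19 windows chr2:181693811-181694060 and chr2:181693978-181694227 overlapped and shared a GC box. A TATAAA box was in 2 of the 8, both of Rgs3 (12.4% of all), and the NFAT core GGAAA in 3 of the 8, from Rgs3 and Rgs19 (55.6% of all). These matches describe letters and not bound sites.

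Sequencing depth, recovered from the steps between the lowest FPKM values (read counts scaled to transcript length and library depth), was 10.68 to 21.41 M reads per library, and 7469 to 8307 genes reached 1 FPKM. These are the smallest depths that fit, and any whole multiple of them would fit as well, so read numbers given below are lower bounds on the reads behind a value. All 9 Treg markers with a row, Foxp3 and Ctla4 among them, reached 1 FPKM in every library. Foxp3 was not level across groups, at 8.67 to 27.8 FPKM in spleen and 15.4 to 32.3 in LN. It was 3.54 to 11.97 FPKM in WT tumor, below every LN and KO tumor library (25.7 to 42.4 in KO tumor), and overlapped spleen. The sum of the 9 markers overlapped between WT tumor (876 to 1122 FPKM) and KO tumor (882 to 1067). The part of the Foxp3 difference in the Rgs levels was not tested. Cd36, the targeted gene, was listed at 0 in all 3 WT tumor and all 4 LN libraries, at 0, 1.06 and 0 FPKM in KO tumors 1 to 3, and at 0, 0.598, 4.47 and 2.17 FPKM in spleens 1 to 4, so its level does not check the KO label. Transcripts of other cells were present. The summed level of 13 macrophage and monocyte markers was 257 to 607 FPKM in spleen and 34.2 to 73.8 in LN. It was 158 to 276 in WT tumor and 425 to 610 in KO tumor libraries. Of the 13, 7 reached 1 FPKM in every spleen library and 7 in every KO tumor library, against 1 in LN and 1 in WT tumor. Tyrobp was 131 to 216 FPKM in spleen and 91.8 to 177 in KO tumor, and C1qb 42.4 to 134 and 36.1 to 93.0. Cd14 was at 0 in all spleen, LN and KO tumor libraries, and Adgre1 and Cd68 were at 0 in all 3 WT tumor libraries. The sum of 9 B cell markers was 64.2 to 275 in spleen, 50.5 to 73.8 in LN, 7.40 to 100.4 in WT tumor and 17.1 to 58.8 in KO tumor. For 7 CD8 T and NK cell markers it was 8.02 to 114 in spleen and 0.172 to 93.8 in LN. In WT tumor it was 60.6 to 198 and in KO tumor 36.4 to 108, so the groups overlapped. Gzma and Cd8b1 reached 1 FPKM in every tumor library, and Ncr1 was at 0 in all of them. The part of CD8 T and NK cell RNA in the Rgs levels was not tested. The sum of 7 erythroid markers, mostly globins, was 2976 to 7086 FPKM in spleen and 79.0 to 1192 in LN. It was 225, 11899 and 8716 in WT tumors 2 to 4 and 9799.6, 16427 and 63.3 in KO tumors 1 to 3, so WT tumor 2 and KO tumor 3 stood apart from the other tumor libraries. The same libraries had the lowest Rgs1 of the tumors (WT tumor 2) and the lowest Rgs10 of all and lowest Rgs19 of the KO tumors (KO tumor 3). These genes did not all go the same way in both libraries. Rgs1 in KO tumor 3 was the highest of the KO tumors (58.9 FPKM). In WT tumor 2, Rgs10 was the lowest of the WT tumors (227 FPKM), but Rgs19 (22.8 FPKM) lay between the other WT tumors. The part of erythroid RNA in these values was not tested.

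Differences were tested with limma on log2(FPKM + 1), a scale that understates the change of low genes, with p-values adjusted over all tested genes by the Benjamini-Hochberg method and 0.05 as the threshold. A gene was tested if it reached 1 FPKM in at least 3 libraries of the fit. Rgs1, Rgs2, Rgs3, Rgs10, Rgs16 and Rgs19 were tested in all 6 comparisons, Rgs14 only in the 2 comparisons of KO tumor with spleen and LN, and Rgs18 in none. Comparisons that share a group, such as WT tumor against spleen and against LN, share its libraries.

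**Figure D1:**
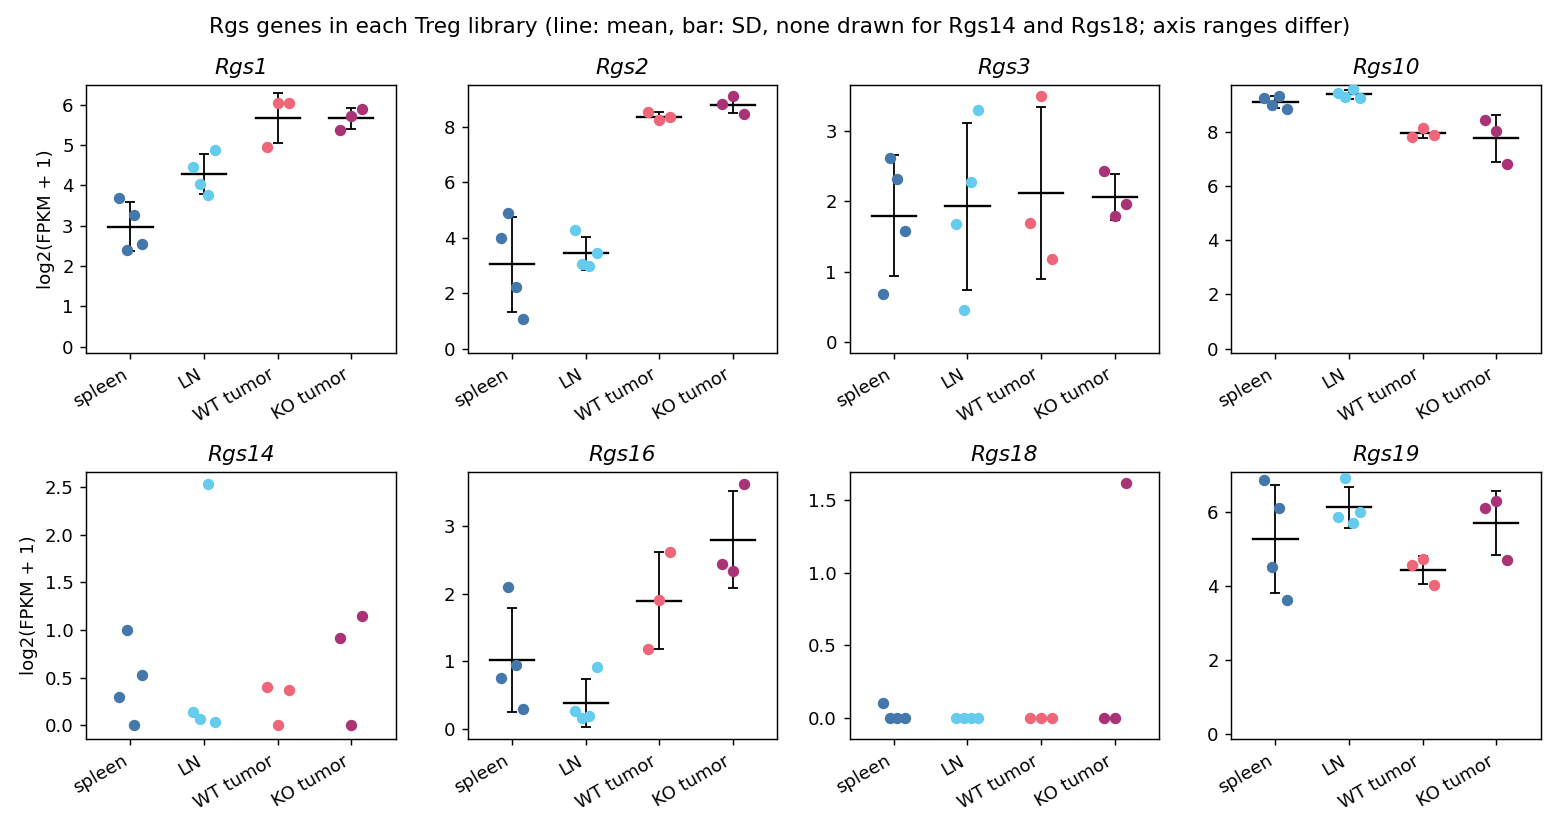
Level of each of the 8 Rgs genes in log2(FPKM + 1), by group. Each point is 1 library, the line is the mean and the bar the SD; Rgs14 and Rgs18 have points only, and the axes differ between panels. Rgs2 sits above 8 in all 6 tumor libraries and below 5 in all 8 lymphoid libraries, while Rgs10 is lower in every tumor library than in any lymphoid one.

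Among the tested genes, Rgs1 and Rgs2 were higher and Rgs10 lower in WT tumor than in spleen Tregs. That is 3 of 6 tested Rgs genes called, where 1.90% of 9616 tested genes were called in this comparison. Against LN, Rgs2 was higher and Rgs10 lower, 2 of 6 called against 3.04% of 9616 genes. In KO tumors, Rgs1, Rgs2 and Rgs10 differed from spleen in the same directions, 3 of 7 against 2.80% of 10147 genes, and Rgs2, Rgs16 and Rgs10 differed from LN, 3 of 7 against 3.42%. Between LN and spleen none of 6 was called by limma (1 of 6 at an unadjusted p under 0.05, beside 997 of all 9616 tested genes), where 0.499% of all tested genes were. Between KO and WT tumor none of 6 was called (1 of 6 unadjusted, beside 709 of all 8210 tested genes), where 0.280% of 8210 genes were. The median difference of the tested Rgs genes was 0.60 for WT tumor against spleen and 0.79 against LN on the log2 scale, beside medians of -0.07 and -0.12 over all tested genes. In KO tumor the medians were 0.42 against spleen and 0.13 against LN, beside 0.02 and -0.01 over all tested genes. These medians cover genes that went in opposite directions, such as Rgs2 upward and Rgs10 downward, so they do not describe a shift of the family.

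Rgs2, an R4 protein that acts mainly on the Gq class of alpha subunits and dampens phospholipase C signals, was low in lymphoid and high in tumor Tregs. Its level was 14.8, 28.6, 3.63 and 1.10 FPKM in spleens 1 to 4, and 18.3, 7.27, 6.87 and 10.05 in LN 1 to 4. It was 371, 300.1 and 324 FPKM in WT tumors 2 to 4, and 455, 547 and 356 in KO tumors 1 to 3. The tumor libraries lay far above all 8 lymphoid ones with no overlap, and the 2 tumor groups overlapped each other. Mean FPKM was 331 ± 35.9 (SD, n = 3) in WT tumor against 12.04 ± 12.6 (n = 4) in spleen, a ratio of 27.5, and 10.6 ± 5.29 (n = 4) in LN, a ratio of 31.2. On the log2 scale the limma differences were 5.33 ± 0.74 (SE; adjusted p = 0.00273) against spleen and 4.93 ± 0.74 (adjusted p = 0.00205) against LN. In KO tumor the mean was 453 ± 95.3 (n = 3), and Rgs2 rose by 5.77 ± 0.67 over spleen (adjusted p = 0.000220, limma) and by 5.36 ± 0.67 over LN (adjusted p = 0.000280, limma). All 4 calls held under every alternative setting and without any single library, where the highest adjusted p was 0.0157.

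Relative to its mean, Rgs2 varied more in spleen (coefficient of variation 104%) than in WT tumor (10.8%). LN and spleen did not differ beyond their spread (0.40 ± 0.69 on the log2 scale, adjusted p = 0.910, limma). KO tumor was higher than WT tumor by 0.43 ± 0.23, with a 95% interval of -0.08 to 0.95 and an adjusted p of 0.674 by limma, so a rise of up to 0.95 or no rise both lie within the error. In bulk libraries, fewer cells of a type and less RNA per cell cannot be told apart, and this holds for every level given here.

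Rgs1, an R4 protein that acts on Gi and Gq and is known to restrain lymphocyte migration toward chemokines, was lowest in spleen, higher in LN and highest in tumors. It was 11.9, 4.28, 8.60 and 4.88 FPKM in spleens 1 to 4, and 20.95, 15.5, 12.5 and 28.4 in LN 1 to 4. WT tumors 2 to 4 had 30.1, 64.6 and 64.7 FPKM, and KO tumors 1 to 3 had 40.9, 51.9 and 58.9. Spleen, LN and tumor libraries did not overlap, although WT tumor 2 lay just above the highest LN library, and the 2 tumor groups overlapped. The mean was 53.1 ± 19.95 (SD, n = 3) in WT tumor and 50.6 ± 9.09 (n = 3) in KO tumor, against 19.3 ± 6.98 (n = 4) in LN and 7.41 ± 3.54 (n = 4) in spleen.

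Rgs1 rose over spleen by 2.70 ± 0.51 on the log2 scale in WT tumor (adjusted p = 0.0155, limma) and by 2.70 ± 0.46 in KO tumor (adjusted p = 0.00337). The neighbouring steps of this order did not pass the threshold: LN exceeded spleen by 1.31 ± 0.47 (adjusted p = 0.311), WT tumor exceeded LN by 1.39 ± 0.51 (adjusted p = 0.193), and KO tumor exceeded LN by 1.39 ± 0.46 (adjusted p = 0.144), all by limma. The call in WT tumor against spleen was lost in a fit of those 2 groups alone (adjusted p = 0.0626), without WT tumor 3 (0.0653) and without WT tumor 4 (0.0633). KO and WT tumor differed by -0.0044 with a 95% interval of -1.0001 to 0.99, which leaves room for a change of about 1 log2 unit either way.

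Rgs16, an R4 protein that T cells induce on activation and that also limits chemokine-driven migration, was low everywhere. Spleens 1 to 4 had 0.680, 3.30, 0.929 and 0.223 FPKM, and LN 1 to 4 had 0.201, 0.127, 0.139 and 0.885. WT tumors 2 to 4 had 1.27, 2.74 and 5.10 FPKM, and KO tumors 1 to 3 had 4.43, 4.04 and 11.3. All 6 tumor libraries were above all 4 LN libraries, and the KO tumor libraries were also above every spleen library, whereas WT tumor overlapped spleen 2. At these depths the LN values stood for about 6 to 38 reads and the KO tumor values for about 128 to 452, so counting error is larger in LN.

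The KO tumor mean was 6.59 ± 4.09 FPKM (SD, n = 3) and the LN mean 0.338 ± 0.366 (n = 4). This was a rise of 2.41 ± 0.60 on the log2 scale with an adjusted p of 0.0349 by limma. The call was lost without any single one of the 7 libraries, with adjusted p between 0.0524 and 0.172, and the lowest difference was 2.002 without KO tumor 3. WT tumor had a mean of 3.04 ± 1.93 (n = 3) and exceeded LN by 1.51 ± 0.58 (adjusted p = 0.213, limma). Against spleen the differences were 0.88 ± 0.58 in WT tumor (adjusted p = 0.539) and 1.78 ± 0.60 in KO tumor (adjusted p = 0.157). KO tumor against WT tumor gave 0.90 ± 0.76 with a 95% interval of -0.81 to 2.61 (adjusted p = 0.820, limma).

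Rgs3, an R4 protein made in many isoforms, and Rgs18, an R4 protein best known from platelets and megakaryocytes, showed no difference that passed the test. Rgs3 was 0.5999, 5.12, 3.98 and 1.98 FPKM in spleens 1 to 4, 2.205, 0.372, 3.85 and 8.82 in LN 1 to 4, 2.24, 10.3 and 1.26 in WT tumors 2 to 4, and 4.37, 2.46 and 2.89 in KO tumors 1 to 3. The 4 groups overlapped throughout, and the differences lay within 0.33 log2 units with adjusted p of 0.899 or more. Rgs3 had 17 annotated transcripts, and the FPKM of the gene does not separate them.

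Rgs18 was listed at 0 in 12 of 14 libraries, at 0.0746 FPKM in spleen 1 (about 2 reads) and at 2.06 FPKM in KO tumor 3 (about 72 reads). At the recovered depths 3 reads would give 0.0690 to 0.138 FPKM in a library, so the library of KO tumor 3 stood apart. In that library 9 of 11 platelet markers, Pf4 and Ppbp among them, were at 0, Itga2b was at 0.0169 and Gp1ba at 2.38 FPKM. Spleen 1, with the highest summed platelet markers (39.0 FPKM), had only those few Rgs18 reads.

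Rgs10, a small R12 protein that acts on Gi subunits and is abundant in immune cells, was the member with the highest level in lymphoid Tregs. It was 612, 514, 639 and 456 FPKM in spleens 1 to 4, and 702, 627, 776 and 605 in LN 1 to 4. WT tumors 2 to 4 had 227, 285 and 237 FPKM, and KO tumors 1 to 3 had 352, 265 and 111. Every tumor library lay below every lymphoid library, and spleen and LN overlapped. KO tumor 3 had the lowest value of all, and the KO group spread from below to above the WT tumor group.

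The mean of Rgs10 was 555 ± 85.0 (SD, n = 4) in spleen and 678 ± 77.7 (n = 4) in LN, against 249.6 ± 31.0 (n = 3) in WT tumor and 243 ± 122 (n = 3) in KO tumor. In WT tumor it fell by 1.14 ± 0.18 on the log2 scale against spleen (adjusted p = 0.00521, limma) and by 1.44 ± 0.18 against LN (adjusted p = 0.000440). In KO tumor it fell by 1.33 ± 0.29 against spleen (adjusted p = 0.0186) and by 1.63 ± 0.29 against LN (adjusted p = 0.00397), both by limma. The KO call against spleen was lost with no filter on low values (adjusted p = 0.0596), in a fit of those 2 groups alone (0.0814) and without KO tumor 3 (-0.85, adjusted p = 0.0534); the other 3 calls held in every alternative. LN exceeded spleen by 0.29 ± 0.16 (adjusted p = 0.595), and KO tumor differed from WT tumor by -0.19 ± 0.40 with a 95% interval of -1.09 to 0.71 (adjusted p = 0.950).

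Rgs14, the other R12 protein, also binds Ras-family GTPases and inactive alpha subunits of the Gi class. It was 0.225, 1.0006, 0 and 0.444 FPKM in spleens 1 to 4, 0.0996, 0.0419, 4.79 and 0.0231 in LN 1 to 4, 0.316, 0 and 0.294 in WT tumors 2 to 4, and 0.885, 0 and 1.21 in KO tumors 1 to 3. Only 3 libraries reached 1 FPKM, and LN 3 was far above the other LN libraries. KO tumor against spleen gave 0.23 ± 0.58 (adjusted p = 0.915, limma), which does not separate the groups.

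Rgs19, an RZ protein that acts on Gi-class subunits, was present in every library. It was 115, 21.9, 67.5 and 11.4 FPKM in spleens 1 to 4, and 57.2, 121, 51.3 and 62.8 in LN 1 to 4. WT tumors 2 to 4 had 22.8, 25.6 and 15.2 FPKM, and KO tumors 1 to 3 had 67.4, 77.3 and 25.1. WT tumor was below all LN libraries and overlapped spleen, which spread the most, and KO tumor 3 lay within the range of WT tumor while KO tumors 1 and 2 lay above it.

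The mean of Rgs19 was 21.2 ± 5.41 (SD, n = 3) in WT tumor, 56.6 ± 27.7 (n = 3) in KO tumor, 53.9 ± 47.4 (n = 4) in spleen and 73.0 ± 32.1 (n = 4) in LN. WT tumor differed from LN by -1.68 ± 0.65 on the log2 scale (adjusted p = 0.222, limma) and from spleen by -0.83 ± 0.65 (adjusted p = 0.610). Among the tested genes of the family, Rgs19 had the largest difference between KO and WT tumor, 1.26 ± 0.54 with a 95% interval of 0.03 to 2.48, and its adjusted p of 0.565 did not pass the threshold. KO tumor against LN (-0.43 ± 0.65, adjusted p = 0.874) and against spleen (0.42 ± 0.65, adjusted p = 0.836) did not pass either.

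**Figure D2:**
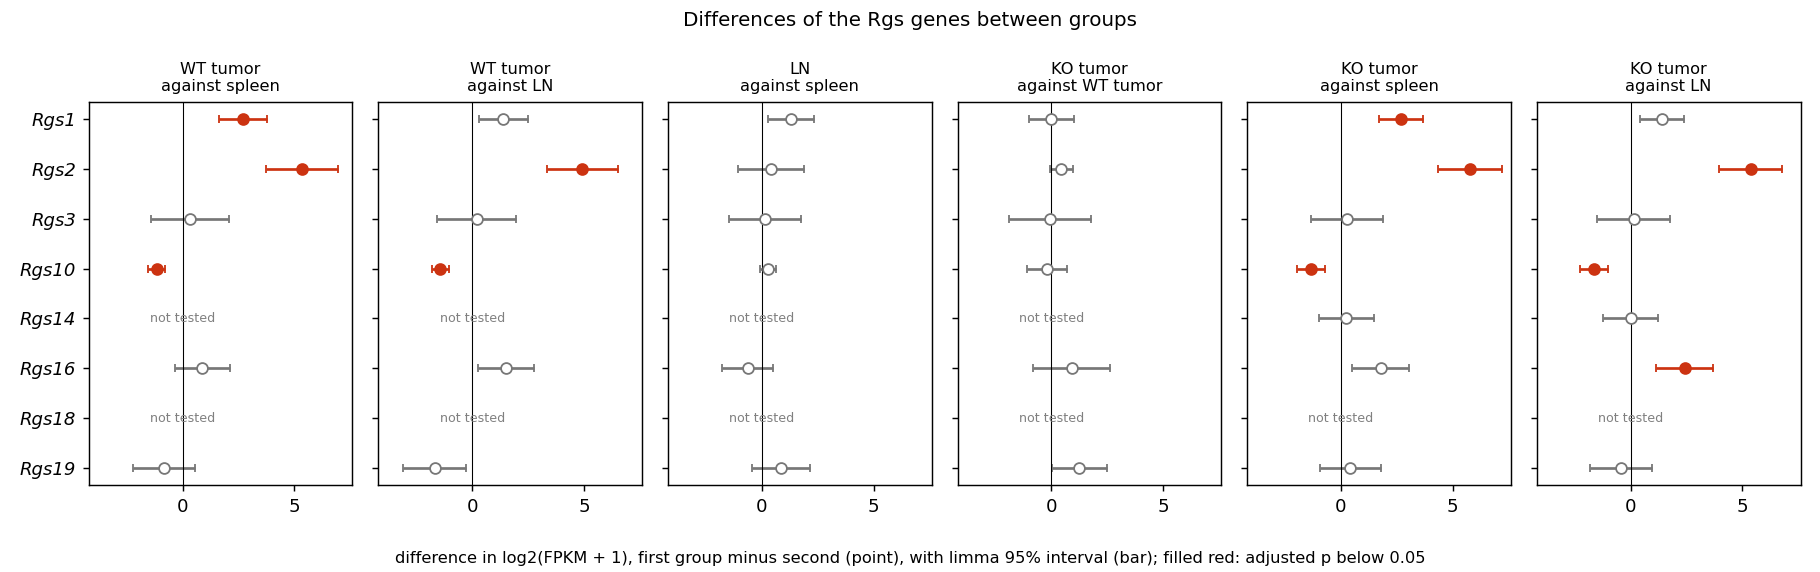
Differences of the 8 Rgs genes in the 6 comparisons. The horizontal axis is the difference in log2(FPKM + 1), first group minus second, with the limma 95% interval as a bar; filled red points have an adjusted p below 0.05. The calls are Rgs1, Rgs2 and Rgs10 in tumor against spleen, Rgs2 and Rgs10 in tumor against LN, and Rgs16 in KO tumor against LN.

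FPKM is a level per transcript length, so the 8 genes can be set beside each other within a library. Their summed level was 633 ± 130 FPKM in spleen, 786 ± 58.3 in LN, 663 ± 21.9 in WT tumor and 814 ± 213 in KO tumor (SD, n = 4, 4, 3 and 3). Rgs10 made up 88.5% ± 6.03 of it in spleen and 86.0% ± 4.04 in LN, but 37.6% ± 3.46 in WT tumor and 28.5% ± 9.32 in KO tumor. The share of Rgs2 was 1.91% ± 2.16 in spleen and 1.36% ± 0.666 in LN, and 50.1% ± 6.53 and 56.5% ± 6.84 in WT and KO tumor. Rgs1 went from 1.13% and 2.51% in spleen and LN to 7.99% and 6.75% in WT and KO tumor, and Rgs19 stayed between 3.18% and 9.39% as a group mean. The ratio of Rgs2 to Rgs10 was at most 0.0557 in any lymphoid library and at least 1.054 in any tumor library. So the most abundant regulator was Rgs10 in all 8 lymphoid libraries and Rgs2 in all 6 tumor libraries, with a summed level that overlapped between tissues. These shares follow from the levels above and carry no test of their own.

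**Figure D3:**
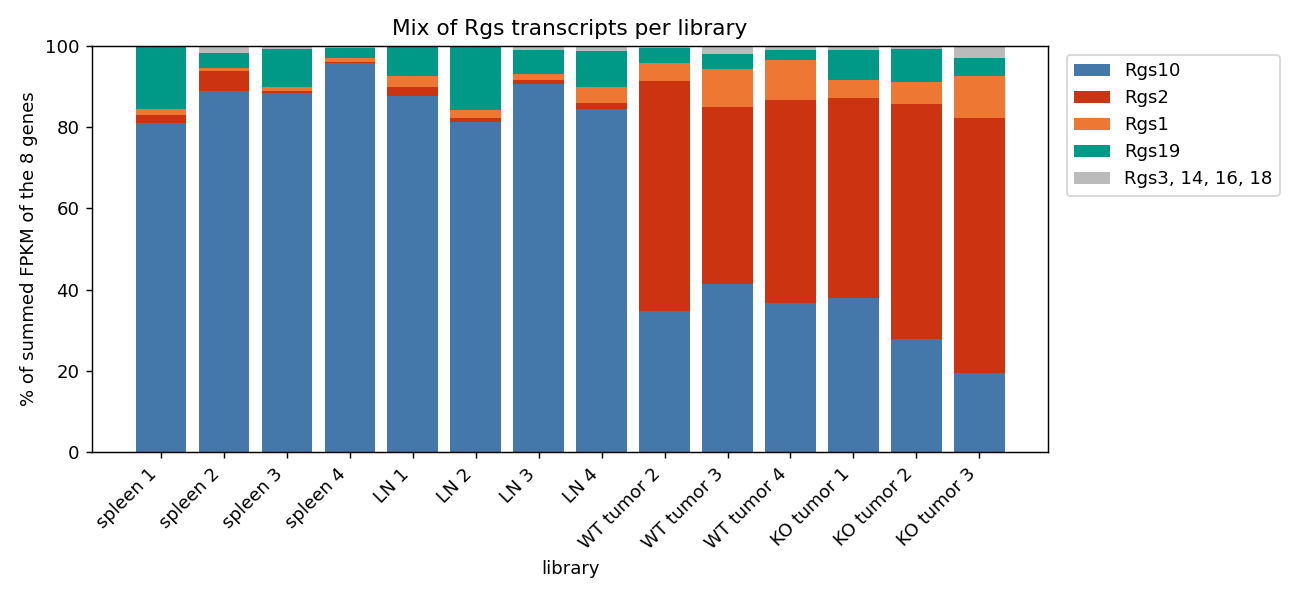
Share of each Rgs gene in the summed FPKM of the 8 genes (vertical axis, %), 1 bar per library. Rgs10 (blue) fills most of each spleen and LN bar, at a mean of 88.5% and 86.0%, and Rgs2 (red) is the largest piece of every tumor bar, at 50.1% in WT and 56.5% in KO tumor.

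The genes around these regulators in the pathway came from lists drawn up with earlier results of these data known. Of the G alpha subunits, the direct targets of RGS proteins, 8 of 13 were tested against spleen and LN and none was called by limma in any of the 6 comparisons (0 to 2 per comparison at an unadjusted p under 0.05). Over all tested genes, from 709 of 8210 (KO against WT tumor) to 1504 of 9616 (WT tumor against LN) had an unadjusted p under 0.05 by limma. Between 0.280% and 3.42% of all tested genes were called per comparison, so 0 of 8, like the counts of 0 in the next lists, lies near the background share and is no result about the subunits. Their summed level was 297 to 412 FPKM in spleen, 238 to 266 in LN, 305 to 401 in WT tumor and 323 to 398 in KO tumor. None of 7 tested beta and gamma subunits was called either (0 to 3 per comparison at an unadjusted p under 0.05), and their median difference in WT tumor against spleen was 0.53 on the log2 scale. None of 16 chaperones and other regulators and none of 9 receptor kinases and arrestins, which switch off receptors, was called by limma against spleen or LN (0 to 1 and 0 to 2 per comparison at an unadjusted p under 0.05).

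Among 42 G protein-coupled receptors of T cells, in WT tumor 3 rose and 1 fell of 33 tested against spleen, where 1.90% of all tested genes were called, and 3 rose and 2 fell against LN (3.04%). In KO tumor 6 rose and 1 fell of 36 against spleen (2.80%), and 5 rose and 2 fell against LN (3.42%). Ltb4r1, the receptor for leukotriene B4, was 0.0276 ± 0.0319 FPKM in spleen, 7.48 ± 2.75 in WT tumor and 32.3 ± 17.2 in KO tumor (SD, n = 4, 3 and 3), and rose over spleen by 2.999 ± 0.45 in WT tumor (adjusted p = 0.00390, limma) and by 4.87 ± 0.54 in KO tumor (adjusted p = 0.000126). Cxcr4, the receptor for the chemokine CXCL12, rose over spleen by 3.33 ± 0.66 in WT tumor (adjusted p = 0.0209) and by 2.86 ± 0.62 in KO tumor (adjusted p = 0.0175). Gpr83, a receptor typical of Tregs, fell by 3.36 ± 0.61 against spleen in WT tumor (adjusted p = 0.0127) and by 4.21 ± 0.63 in KO tumor (adjusted p = 0.00127). Gpr18, which lymphocytes also carry, fell by 4.72 ± 1.11 against LN in WT tumor (adjusted p = 0.0342). None of 33 receptors was called between LN and spleen, and none of 30 between KO and WT tumor, where 3 had an unadjusted p under 0.05. Over all tested genes of that comparison, 709 of 8210 had an unadjusted p under 0.05 by limma.

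Of the effectors downstream, 22 were tested in the WT comparisons and Crem, a cyclic AMP-responsive transcription factor, was the only call. It was 69.0 ± 20.6 FPKM (SD, n = 3) in WT tumor and 6.57 ± 7.22 (n = 4) in spleen, a rise of 3.95 ± 0.82 (adjusted p = 0.0245, limma). It rose in KO tumor by 4.14 ± 0.75 over spleen (adjusted p = 0.00508) and by 2.92 ± 0.75 over LN (adjusted p = 0.0408), and in WT tumor against LN it did not pass (2.72 ± 0.82, adjusted p = 0.102). Calls were 1 of 22 effectors for WT tumor against spleen and 0 of 22 against LN, beside 1.90% and 3.04% of all tested genes. For KO tumor they were 1 of 23 against spleen and 1 of 23 against LN, beside 2.80% and 3.42%. These counts lie near the background share and are no result about the effectors as a set.

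**Figure D4:**
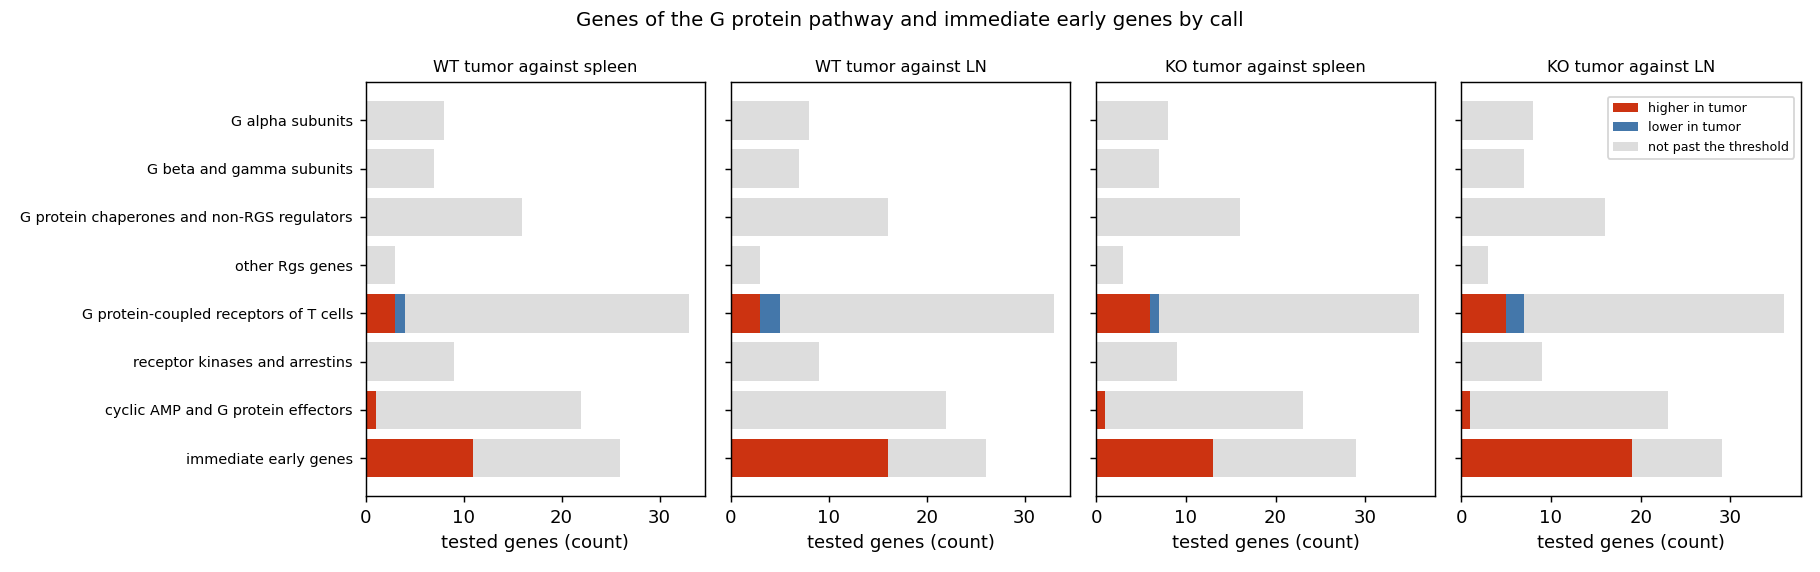
Number of tested genes (horizontal axis) in each list of the G protein pathway and among the immediate early genes, for the 4 comparisons of tumor with lymphoid Tregs. Red is higher and blue lower in tumor at an adjusted p below 0.05. Receptors (3 to 6 higher, 1 or 2 lower) and immediate early genes (11 to 19 higher) hold all of the calls but those of Crem, and the G protein subunits hold none.

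Other transcripts also differed between tumor and lymphoid libraries. Immediate early genes, which cells switch on within minutes of a stimulus, had a summed level over 30 genes of 547 to 763 FPKM in spleen, 347 to 538 in LN, 2701 to 3181 in WT tumor and 2521 to 2613 in KO tumor. The sum was lower in LN than in spleen, and lower in KO than in WT tumor. Of 26 tested in the WT comparisons, 11 rose against spleen and 16 against LN, and of 29 in the KO comparisons 13 and 19 rose, with none lower by limma, beside 1.90%, 3.04%, 2.80% and 3.42% of all tested genes called in those comparisons. Their part in the Rgs differences was not tested. The macrophage sum given above was mostly Ly6c2 in WT tumor, at 217, 145 and 275 FPKM. The other 12 macrophage markers, with Ly6c2 set aside after its values were seen, summed to 29.0, 12.1 and 0.993 FPKM in WT tumors 2 to 4 and to 3.89 to 36.0 in LN, which overlapped. They summed to 227 to 511 FPKM in spleen and 248 to 265 in KO tumor, above every WT tumor library. The part of these transcripts in the Rgs levels was not tested.

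For each gene, the most similar profiles, up to 3, were sought by Pearson's r of log2(FPKM + 1) over 14 libraries among 5894 genes with a mean of at least 5 FPKM. These are descriptions: the libraries fall into tumor and lymphoid sets, and a gene that differs between the sets gets a high r from that alone, so r within the 8 lymphoid and 6 tumor libraries is given too. For Rgs2 the closest were Tpi1 (0.96; 0.72 lymphoid, 0.62 tumor), AW112010 (0.95; 0.93 and 0.27) and Klf6 (0.95; 0.35 and -0.36). For Rgs1 they were Icos (0.90; 0.75 and 0.15), Ifng (0.90; 0.84 and -0.46) and B2m (0.90; 0.89 and 0.19). For Rgs10 they were Treml2 (0.90; 0.61 and 0.41), the mitochondrial transfer RNA mt-Te (0.89; 0.01 and 0.69) and Evl (0.89; 0.68 and 0.74). Within the tumor set the r of the closest profiles of Rgs1 and Rgs2 was at most 0.27, apart from Tpi1.

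For Rgs16 the closest profiles were Pglyrp1 (0.88; 0.75 lymphoid, 0.62 tumor), Fosl2 (0.86; 0.67 and 0.57) and Zmiz1 (0.85; 0.89 and 0.84), and for Rgs19 they were Zfp954 (0.85; 0.84 and 0.81), the pseudogene Gm15210 (0.84; 0.76 and 0.99) and Btbd2 (0.82; 0.84 and 0.73). Each of these 6 had an r of at least 0.57 in both sets of libraries. For Rgs3 they were Plekha3 (0.85; 0.92 and 0.83), Stau1 (0.83; 0.94 and 0.82) and Cnot6 (0.82; 0.85 and 0.78). For Rgs14 they were Snord96a (0.84; 0.95 and -0.08), Rbbp6 (0.73; 0.77 and 0.59) and Nrbp1 (0.71; 0.81 and 0.50). For Rgs18, Igkv13-84 (0.99) and Hnrnpk (0.66) were among the closest. Every r of Rgs18 rests mainly on KO tumor 3, where Igkv13-84, an immunoglobulin segment, was 586 FPKM against at most 0.858 in any other library. Among the members themselves, Rgs1 and Rgs2 had r = 0.83 over all libraries but 0.24 within the lymphoid and -0.36 within the tumor set. Rgs10 and Rgs16 ran in opposite directions at -0.84 over all libraries, -0.41 within lymphoid and -0.60 within tumor libraries.

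Of 20 Rgs genes with a row, the other 12 were mostly absent. Of those, 9 never reached 1 FPKM and 5 of the 9 were at 0 in every library. Rgs9 reached 10.9 FPKM in WT tumor 2, Rgs11 21.3 in LN 2 and Rgs12 5.88 in LN 1, and none of these 3 was called by limma in any comparison in which it was tested, nor had an unadjusted p under 0.05.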

How the data were processed

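The authors deposited 1 table of FPKM values per library for 22255 genes, and the labels give Smart-Seq2 on low-input RNA as the library protocol, with 1 sample per library. Cufflinks 2.2.1, Cuffdiff, DESeq2, Bowtie2 2.2.9, TopHat2 2.1.1 and Trimmomatic are listed, with the builds mm10 and GRCm38 but with no order of steps, per the submitters' processing notes. FPKM depends on the transcript length that Cufflinks assigns and is a share of each library's reads, so a large change in other genes moves it.

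Values were transformed to log2(FPKM + 1). Genes at 1 FPKM or more in at least 3 libraries of a fit were tested with limma 3.58.1 (trend and robust empirical Bayes; statmod 1.5.0, R 4.3.3), checked on simulated data. The 11 spleen, LN and WT tumor libraries were fitted together, the 6 tumor libraries alone for KO against WT, and all 14 for KO tumor against spleen and LN, with no covariate. Depth was taken as the smallest number of reads for which low FPKM values of single-transcript genes of at least 800 bases were whole reads within 0.1 (93.2% to 96.1% of 241 to 342 values per library). No 2 libraries held identical values (pairwise r 0.844 to 0.916). Of the gene IDs, 22196 matched GENCODE M21, which gave positions, and promoters came from RefSeq.

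The Rgs genes and the gene lists were chosen with earlier results of these data known. From a list, only the 2 genes with the smallest p in each direction of a comparison were named, from marker lists those above 1 FPKM in every library of a group or at 0, and for likeness the 3 highest r (1 of these genes is not reported here). Alternatives were a pseudocount of 0.1, no filter, a fit of the 2 groups only (all 14 libraries for KO against WT), scaling to the protein-coding total, array weights, a replicate block and leaving out each library.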

Additional observations from a re-analysis of the deposited data

Results flagged for a closer look

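Within groups of 4, a library was singled out where its gap to the nearest other library, divided by the range of the group on the log2(FPKM + 1) scale, exceeded Dixon's 95% critical value for 4 values. Chance flags about 1 in 20 such groups, and 16 groups (8 genes in spleen and in LN) were looked at. Rgs18 in LN, at 0 in every library, had no range and could not be flagged. Rgs14 in LN replicate 3 was 4.79 FPKM, with a gap of 0.958 of the range. Rgs16 in LN replicate 4 was 0.885 FPKM, with a gap of 0.877 of the range. Rgs18 in spleen replicate 1 was 0.0746 FPKM, about 2 reads, with the other spleen libraries at 0. With those tied at 0, any value above 0 would be flagged, so the rate of 1 in 20 does not apply to it. Rgs14 and Rgs18 had no call that these values could change. Without LN replicate 4 the rise of Rgs16 in KO tumor over LN no longer passed (adjusted p = 0.0524, limma), as was the case without each other library. The groups of 3 tumor libraries were not looked at in this way.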

How the results depend on the processing

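Both the counts of genes called and some of the Rgs calls depended on the setting. For KO tumor against LN, the 3 Rgs calls became 2 without any single library. For WT tumor against spleen the count of 183 was 112 with no filter, 87 in the fit of the 2 groups, 107 with array weights and 82 to 173 without single libraries. For WT tumor against LN the count of 292 was 183 to 268 without single libraries. For LN against spleen the count of 48 was 16 with no filter and 13 to 35 without single libraries. For KO against WT tumor the count of 23 was 0 with no filter (by limma, with 709 genes at an unadjusted p under 0.05 in the filtered fit), 60 in the fit of all 14 libraries and 9 to 15 without single libraries. For KO tumor against spleen the count of 284 was 185 in the fit of the 2 groups and 158 to 269 without single libraries, and for KO tumor against LN the count of 347 was 203 to 267.

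The labels do not say whether equal replicate numbers mark paired libraries, and the values showed no pairing but cannot exclude it. Same-numbered libraries of different groups had correlations of their deviations between -0.028 and 0.030 over 18 pairs. Those with other numbers had -0.033 to 0.030 over 55 pairs, and 4 of 14 libraries correlated best with their own number. With the replicate block, 89 genes were called for WT tumor against spleen, 186 for WT tumor against LN, 20 for LN against spleen and 6 for KO against WT tumor. Under the replicate block Rgs16 in KO tumor against LN had an adjusted p of 0.0813, Rgs1 in KO against WT tumor was 0.32 and Rgs3 in WT tumor against LN was -0.032.

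The other reversals were of differences that lay between -0.43 and 0.42 in the main fit, and none of these passed the threshold. In KO against WT tumor, Rgs3 was 0.017 with a pseudocount of 0.1 and 0.0099 after scaling, and Rgs1 was 0.10 after scaling and 0.031 with array weights. Rgs14 in KO tumor against LN was 0.48 with a pseudocount of 0.1. Without single libraries Rgs3 ranged from -0.36 to 0.80 in WT tumor against spleen, -0.49 to 0.67 in WT tumor against LN, -0.32 to 0.62 in LN against spleen, -0.54 to 0.62 in KO against WT tumor, -0.11 to 0.54 in KO tumor against spleen and -0.36 to 0.59 in KO tumor against LN. Likewise Rgs2 in LN against spleen ranged from -0.25 to 1.02, and in KO against WT tumor Rgs1 ranged from -0.36 to 0.18 and Rgs10 from -0.53 to 0.30. Rgs19 in KO tumor ranged from -0.13 to 0.95 against spleen and -0.72 to 0.070 against LN, and Rgs14 in KO tumor against LN from -0.22 to 0.34. The cause of these shifts was not tested. With 3 or 4 libraries a group, even differences well above 1 log2 unit could fail the threshold. Rgs16 at 1.78 in KO tumor against spleen and Rgs19 at -1.68 in WT tumor against LN did not pass. The main differences of Rgs3 lay within 0.33 log2 units and did not pass either. Rgs14 and Rgs18 rest on few reads.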
